A study of Mus musculus with 6 samples.

Results

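The genes described here are 10 extracellular matrix genes: the matricellular genes Ccn1, Ccn2, Thbs1, Sparc and Postn, the small leucine-rich proteoglycan genes Dcn, Bgn and Lum, the fibronectin gene Fn1 and the laminin gene Lama4. They were taken from the deposited expression table by symbol, and all 10 were found among its 15824 genes. They were chosen by their KO against WT values in these same libraries, so those values, and any count of them past a threshold, are given as a description and support nothing by themselves. RNA was sequenced from cells labelled as alveolar macrophages, the phagocytes of the airspaces, isolated by flow cytometry from lungs of mice aged 8 weeks. Wild-type mice (WT) gave 3 libraries and mice with a knockout of Men1 (KO) another 3. Men1 is the gene of the chromatin scaffold protein menin, and the series asks which genes menin targets in macrophages. The strain, the way Men1 was deleted, any pooling of animals and the sexes are not stated in the labels. Nothing says whether the replicates are separate animals, so p-values below rest on a spread between samples that could be technical.

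Matricellular proteins are secreted into the matrix but act mainly as signals, binding integrins, growth factors and other matrix proteins instead of bearing load. Small leucine-rich proteoglycans bind collagen fibrils and carry chondroitin or dermatan sulfate chains (decorin, biglycan) or keratan sulfate (lumican), while laminins build the sheet of the basement membrane. In the lung most of these proteins are products of fibroblasts and other mesenchymal or vascular cells, whereas thrombospondin-1 and fibronectin are also known products of macrophages.

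Promoter sequences were at hand for 4 of the 10 genes and are shown because these genes moved in the same direction. The RefSeq table of build GRCm38.p6 gave the 250 bases before the transcription start, printed 5′ to 3′ on the strand of the gene. Capitals mark TATAAA (the TATA box) and GGAATG (the core bound by TEAD factors, the DNA-binding partners of YAP), searched on both strands.
Ccn1, chr3:145649986-145650235, minus strand: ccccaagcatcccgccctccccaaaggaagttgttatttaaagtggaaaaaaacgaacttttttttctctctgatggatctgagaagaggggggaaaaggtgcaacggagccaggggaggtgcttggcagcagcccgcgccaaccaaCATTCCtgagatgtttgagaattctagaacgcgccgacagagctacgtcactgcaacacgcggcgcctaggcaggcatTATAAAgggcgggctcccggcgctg
Postn, chr3:54360857-54361106, plus strand: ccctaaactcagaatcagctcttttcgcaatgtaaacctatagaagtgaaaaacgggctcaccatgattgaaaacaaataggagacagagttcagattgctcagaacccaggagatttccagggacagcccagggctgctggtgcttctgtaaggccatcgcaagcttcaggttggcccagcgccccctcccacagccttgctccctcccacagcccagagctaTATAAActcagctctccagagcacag
Bgn, chrX:73483351-73483600, plus strand: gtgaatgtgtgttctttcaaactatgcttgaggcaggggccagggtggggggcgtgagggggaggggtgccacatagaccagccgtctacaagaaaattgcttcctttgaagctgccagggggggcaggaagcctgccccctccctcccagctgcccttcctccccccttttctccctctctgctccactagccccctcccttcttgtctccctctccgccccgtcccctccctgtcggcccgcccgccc
Sparc, chr11:55420081-55420330, minus strand: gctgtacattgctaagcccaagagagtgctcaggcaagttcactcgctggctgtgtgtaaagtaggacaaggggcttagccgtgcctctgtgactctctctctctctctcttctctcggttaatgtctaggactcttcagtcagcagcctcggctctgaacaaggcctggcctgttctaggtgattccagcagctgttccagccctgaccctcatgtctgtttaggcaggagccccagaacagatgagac
Ccn1 held 1 TEAD core, on the opposite strand and beginning 103 bases before the start, and 1 TATA box beginning 25 bases before it. Postn had a TATA box at nearly the same distance, 26 bases, in the window shown, while its other listed start, with the window chr3:54359017-54359266, had neither motif. Bgn and Sparc had neither in the windows shown. In the GENCODE M21 annotation Sparc starts further upstream, at 55423183, so the window shown for it lies inside the gene there. GGGCGG (the GC box) matched at 3 places in Bgn, 2 of which share letters, and at 2 in Ccn1, beginning 19 and 239 bases before the start. The Bgn matches lay in a window of 64.4% G and C, against a median of 52.4% over 32851 promoter windows of the same length. Of those windows, 12.4% held TATAAA, 12.6% GGAATG and 32.7% GGGCGG. Of 2 further motifs searched, TGANTCA (AP-1) was in none of these windows and in 6.75% of all, and CAGAC (bound by SMAD factors) was in Sparc and in the other Postn window and in 42.2% of all. None of the motifs searched was present in the windows of all 4 genes, and other motifs were not examined.

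Men1 checked the labels: its counts were 639, 594 and 603 in WT and 150, 149 and 165 in KO. Library totals lay between 19955242 and 20151990 counts. Y-linked transcripts separated the groups as completely as the genotype did, since Ddx3y had 1100 to 1167 counts in WT and 0 in every KO library. Each comparison below is therefore also one between Y-positive libraries and libraries with almost no Y-linked RNA, and the 2 cannot be told apart. Bgn, on the X chromosome, is the only gene of the 10 on a sex chromosome. Markers of alveolar macrophages were uneven: 9 of 11 were listed and 5 tested, of which 3 were higher and 2 lower in KO. Siglecf, the lectin used to recognise these cells, had 33, 47 and 46 counts in WT and 29, 27 and 23 in KO. Fabp1 had 1 count in all 6 libraries together. Looked up after their values were seen, Ear1, Ear2 and Plet1 had at most 4 counts in any library, and Car4 and Krt79 were not listed. Several markers of the labelled cell type were thus nearly absent from both groups. The scavenger receptor gene Marco was abundant and 6.60-fold higher in KO (172 CPM in WT against 1137 in KO, as read counts scaled to library size), Chil3 and Trim29 were 2.01-fold and 3.80-fold higher, and Atp6v0d2 was 1.95-fold lower. The 9 listed genes summed to 297 to 307 CPM in WT, against 1194 to 1242 in KO. Most of that sum was Marco and Atp6v0d2 (119 CPM in WT against 60.8 in KO), and its rise came from Marco. General macrophage genes were abundant, with 5 of 7 tested higher and 2 not passing, and with sums of 27488 to 28643 CPM in WT, against 32268 to 33030 in KO.

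All 10 genes were lower in KO, but by very unequal amounts. Lama4, Ccn2, Ccn1, Bgn, Dcn and Sparc were at least 8-fold lower, Postn, Lum and Fn1 lay between, and Thbs1 was nearly level. Of the 11817 tested genes 69.2% were called at an adjusted p under 0.05 (edgeR's quasi-likelihood test) in either direction and 34.9% on the lower side, and 0.592% were called and at least 8-fold lower, beside 6 of the 10. The choice of these genes used this contrast, so nothing is read from that count. The median log2 fold change was -3.21 over the 10 and 0.00143 over all tested genes. In every one of the 10 the highest KO library was below the lowest WT library, as in 35.8% of tested genes. Ccn1, Lum, Lama4 and Postn had fewer than 10 counts in every KO library and passed the filter on low counts only through WT. In bulk RNA, fewer cells of a type and less RNA per cell cannot be told apart.

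**Figure D1:**
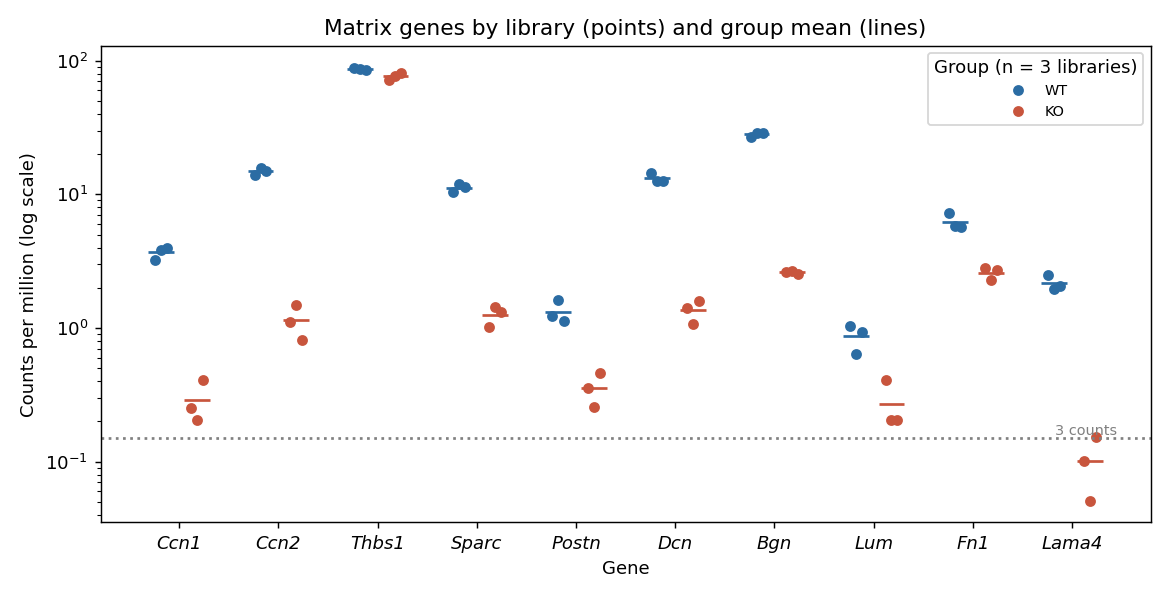
CPM on a log axis for the 10 matrix genes, with 1 point per library, 3 WT and 3 KO, and a line at each group mean. The dotted line marks about 3 counts by unscaled library totals. The groups are apart for every gene, widely for Bgn (28.1 against 2.61 CPM) and narrowly for Thbs1 (86.9 against 76.3 CPM). Lama4 has at most 3 counts in any KO library, and its KO replicate 3 lies just above the line at 0.153 CPM.

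The CCN proteins are secreted adaptors induced by serum, TGF-beta and mechanical signals. Ccn2, the gene of connective tissue growth factor (chromosome 10 from 24595442 to 24598683, gene ID 14219), had 285, 323 and 304 counts in WT and 22, 29 and 16 in KO. KO replicate 2 was the highest of the KO libraries and still far below the lowest WT library. Its level went from 14.9 ± 0.944 to 1.14 ± 0.334 CPM (SD, n = 3 in each group, as below), and its log2 fold change was -3.70 (SE 0.135). Ccn1, formerly Cyr61 (chromosome 3 from 145646971 to 145649985, gene ID 16007), had 66, 78 and 82 counts in WT and 5, 4 and 8 in KO. The log2 fold change of Ccn1 was -3.65 (SE 0.254), and the summed counts gave a ratio of 13.3 with an exact 95% counting interval of 8.12 to 23.2. The fold changes of the CCN pair lay within 1 SE of each other. The ratio of Ccn1 to Ccn2 counts was 0.232, 0.241 and 0.270 in WT and 0.227, 0.138 and 0.500 in KO, so the WT range lay inside the KO range, which rests on few counts. The build GRCm38.p6 holds for all coordinates here, and these intervals cover counting error only.

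Thbs1, which encodes thrombospondin-1, a platelet and macrophage protein that activates latent TGF-beta and binds CD47 and CD36, had the smallest difference of the 10. Its counts were 1810, 1752 and 1762 in WT and 1406, 1507 and 1583 in KO (chromosome 2 from 118111876 to 118127133, gene ID 21825). The lowest WT library was above the highest KO library, and the means were 86.9 ± 1.63 and 76.3 ± 4.68 CPM. The log2 fold change was -0.19 (SE 0.0363), which is 1.14-fold lower. The KO libraries of Thbs1 varied 5.28 times as much as counting noise allows (chi-square per degree of freedom), with KO replicate 1 the lowest, and without that library the log2 fold change was -0.14. On the TPM scale (transcript shares corrected for length) the median of all genes shifted by -0.12, and Thbs1 was at -0.31, or -0.19 relative to that shift. Markers of platelets moved the other way: all 7 of 7 listed genes were higher in KO, none was at 0, and their sum was 67.9 to 71.3 CPM in WT, against 183 to 186 in KO. Ppbp and Pf4, chemokines of platelet granules, were 3.04-fold and 2.06-fold higher, and Itga2b and Gp1bb, receptor subunits of platelets, 3.42-fold and 3.63-fold higher (adjusted p from 2.12e-27 to 2.02e-10 in edgeR's quasi-likelihood test). Their part in the Thbs1 value was not tested.

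Sparc and Postn encode matricellular proteins of remodelling connective tissue, a collagen-binding glycoprotein and periostin. Sparc (chromosome 11 from 55394159 to 55420080, gene ID 20692) had 213, 243 and 232 counts in WT and 20, 28 and 26 in KO. Its WT level of 11.2 ± 0.747 CPM compared with 1.26 ± 0.216 in KO, with a log2 fold change of -3.15 (SE 0.137). Postn (chromosome 3 from 54359267 to 54391041, gene ID 50706) was rare throughout, with 25, 33 and 23 counts in WT and 7, 5 and 9 in KO. Its log2 fold change was -1.87 (SE 0.312), and the ratio of summed counts was 3.86 with a counting interval of 2.36 to 6.57. That interval does not reach the ratio of Sparc, 9.30 (7.31 to 12.0).

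Among the small leucine-rich proteoglycans, decorin and biglycan stood at a similar fold and lumican at a smaller one. Bgn (chromosome X from 73483601 to 73495936, gene ID 12111) had 551, 585 and 586 counts in WT and 52, 52 and 50 in KO. The KO libraries of Bgn differed from each other by only 2 counts. The level of Bgn was 28.1 ± 0.939 CPM (WT) and 2.61 ± 0.0587 CPM (KO), and the log2 fold change was -3.42 (SE 0.0880). Dcn (chromosome 10 from 97479500 to 97518163, gene ID 13179) had 292, 255 and 260 counts in WT and 28, 21 and 31 in KO, and its log2 fold change was -3.27 (SE 0.131). Lum, its neighbour on the same chromosome (97565501 to 97572703, gene ID 17022), had 21, 13 and 19 counts in WT and 8, 4 and 4 in KO. The nearest libraries of Lum in the 2 groups, 13 and 8 counts, were only 5 counts apart. Its log2 fold change was -1.65 (SE 0.372) and its ratio of summed counts 3.31 (1.87 to 6.21), below the counting interval of Dcn, 10.1 (8.01 to 12.9).

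Fn1 encodes fibronectin, the adhesive glycoprotein that integrins assemble into fibrils. It had 147, 118 and 116 counts in WT and 55, 45 and 53 in KO (chromosome 1 from 71585473 to 71653280, gene ID 14268). WT replicate 1 was the highest, and the WT libraries varied 2.47 times as much as counting noise. Mean levels were 6.22 ± 0.861 CPM for WT and 2.597 ± 0.262 for KO, with a log2 fold change of -1.26 (SE 0.137), or 2.39-fold lower. Lama4 encodes the laminin alpha 4 chain, which is typical of vessel walls and of muscle and fat. It had 51, 40 and 42 counts in WT and 2, 1 and 3 in KO (chromosome 10 from 38965515 to 39110188, gene ID 16775). Its ratio of summed counts, 22.2, was the highest of the 10, but its counting interval of 9.92 to 61.5 takes in the ratios of Ccn1, Ccn2, Bgn and Dcn. Ccn2, Lama4, Dcn and Lum all lie on chromosome 10.

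**Figure D2:**
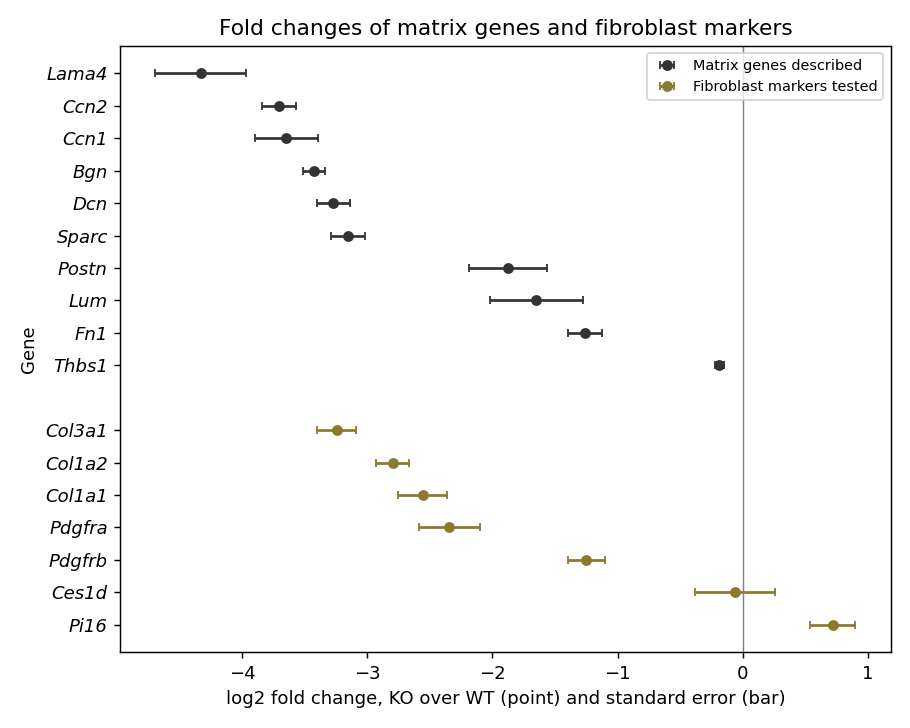
Fitted log2 fold change of KO over WT (point) with its standard error (bar) for the 10 matrix genes and for the 7 tested fibroblast markers. The matrix genes run from -4.33 for Lama4 to -0.19 for Thbs1, and the collagen genes among the markers from -3.25 to -2.56, while Pi16 is above 0.

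Fibroblast-type genes were compared with the other members by their counts within each library. Sparc, Dcn, Bgn, Lum, Lama4 and Postn were grouped as fibroblast-type, although the laminin alpha 4 chain is typical of vessel walls, muscle and fat. The 6 had a median log2 fold change of -3.21, and Ccn2 was beyond that median at -3.70. The fitted values of Fn1 (-1.26) and Thbs1 (-0.19) fell short of those of all 6. For Fn1 the ratio of summed counts, 2.49, still lay inside the counting intervals of Lum (1.87 to 6.21) and Postn (2.36 to 6.57). The ratio of Dcn to Bgn counts was 0.530, 0.436 and 0.444 in WT and 0.538, 0.404 and 0.620 in KO, so the groups overlapped. Ccn2 to Bgn gave 0.517, 0.552 and 0.519 in WT and 0.423, 0.558 and 0.320 in KO, which overlapped as well. Sparc to Bgn gave 0.387, 0.415 and 0.396 in WT and 0.385, 0.538 and 0.520 in KO, again with overlap. Fn1 to Bgn did not overlap, at 0.267, 0.202 and 0.198 in WT against 1.06, 0.865 and 1.06 in KO, and neither did Thbs1 to Bgn, at 3.28, 2.99 and 3.01 against 27.0, 29.0 and 31.7. Fn1 also moved apart from Thbs1, since their ratio was 0.0812, 0.0674 and 0.0658 in WT and 0.0391, 0.0299 and 0.0335 in KO. Lum to Bgn gave 0.0381, 0.0222 and 0.0324 in WT against 0.154, 0.0769 and 0.0800 in KO, and Postn to Bgn 0.0454, 0.0564 and 0.0392 against 0.135, 0.0962 and 0.180, both without overlap. Lama4 to Bgn did not overlap in the other direction, at 0.0926, 0.0684 and 0.0717 in WT against 0.0385, 0.0192 and 0.0600 in KO, and Ccn1 to Bgn overlapped, at 0.120, 0.133 and 0.140 against 0.0962, 0.0769 and 0.160. Relative to Bgn, the ratios of Dcn, Sparc, Ccn1 and Ccn2 thus overlapped between the groups, those of Thbs1, Fn1, Lum and Postn were higher in KO and that of Lama4 was lower, with few KO counts behind Lum, Postn, Lama4 and Ccn1. Genes with and without overlap thus stood on both sides of the division into fibroblast-type and other genes. The share of all genes with such overlap was not computed. Bgn was itself chosen on this contrast, and with few counts overlap does not show equal change.

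Most tested markers of fibroblasts outside the 10 genes were also lower in KO, by unequal amounts. Of 12 such genes, 10 were listed and 7 tested, of which 5 were lower, 1 was higher and 1 did not pass, with a median log2 fold change of -2.35. Their summed level was 34.7 to 36.3 CPM in WT, against 8.48 to 10.04 in KO. The collagen genes Col3a1, Col1a2 and Col1a1 were 9.49-fold, 6.95-fold and 5.89-fold lower, and Pdgfra, a growth factor receptor of fibroblasts, was 5.09-fold lower. Scara5 had no counts in KO and 9 in WT, and Pi16, a marker of adventitial fibroblasts singled out after its value was seen, was 1.65-fold higher. Looked up after their values were seen, Pdgfrb was 2.38-fold lower and Ces1d did not pass (log2 fold change -0.06). Tcf21 and Inmt were not listed. The ratio of Bgn to Col1a2 counts was 2.19, 2.26 and 2.74 in WT and 1.79, 1.41 and 1.47 in KO, without overlap. Both tested genes of smooth muscle were lower, Tagln 6.98-fold and Acta2 1.47-fold, and the 9 listed genes of that list, with Des at 0 in KO and Kcnj8 at 0 in WT, summed to 13.7 to 14.9 CPM in WT, against 6.70 to 8.30 in KO. Markers of endothelial cells, which make laminin alpha 4, were lower in 3 of 5 tested cases and higher in 1. The 8 listed summed to 74.0 to 77.7 CPM in WT, against 58.3 to 61.5 in KO. Most of that sum was Vwf (51.8 against 41.6 CPM) and Kdr (19.4 against 13.4), while Tie1 was 1.87-fold higher. Ramp2 had 2, 0 and 2 counts in WT and 0 in KO. The part of fibroblasts, smooth muscle and endothelial cells in the values of the 10 genes was not tested. Mesothelial (2 listed), lymphocyte (6 listed) and epithelial (7 listed) markers summed to at most 0.611, 0.868 and 6.09 CPM in any library. Neutrophil markers (5 listed) summed to 831 to 848 CPM in WT, against 621 to 642 in KO, most of it from Mmp8, which was 1.43-fold lower, while S100a8 and S100a9, the other tested genes of that list, were 1.87-fold and 3.19-fold higher.

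Scaled to transcript length, the order of the 10 genes changed between the groups. FPKM, in which the authors divided reads by transcript length (not the genomic span) and library size, serves here to compare genes. In WT the order of mean FPKM was Thbs1 16.1, Bgn 13.7, Dcn 8.69, Ccn2 7.34, Sparc 5.98, Ccn1 2.22, Fn1 0.817, Lum 0.507, Postn 0.483 and Lama4 0.387. Neighbours from Thbs1 down to Lum had library ranges that did not overlap, and the last 3 overlapped with their neighbours. In KO the order was Thbs1 13.6, Bgn 1.22, Dcn 0.853, Sparc 0.643, Ccn2 0.537, Fn1 0.330, Ccn1 0.167, Lum 0.150, Postn 0.127 and Lama4 0.0200, where Dcn, Sparc and Ccn2 overlapped as neighbours, as did Ccn1, Lum and Postn. Thbs1 exceeded Bgn 1.17-fold in WT and 11.1-fold in KO. Among all listed genes by mean FPKM, Thbs1 lay at percentile 70.8 in WT and 68.3 in KO, Bgn at 67.6 and 36.5, Ccn2 at 55.9 and 31.6, and Lama4 at 29.1 and 13.1.

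**Figure D3:**
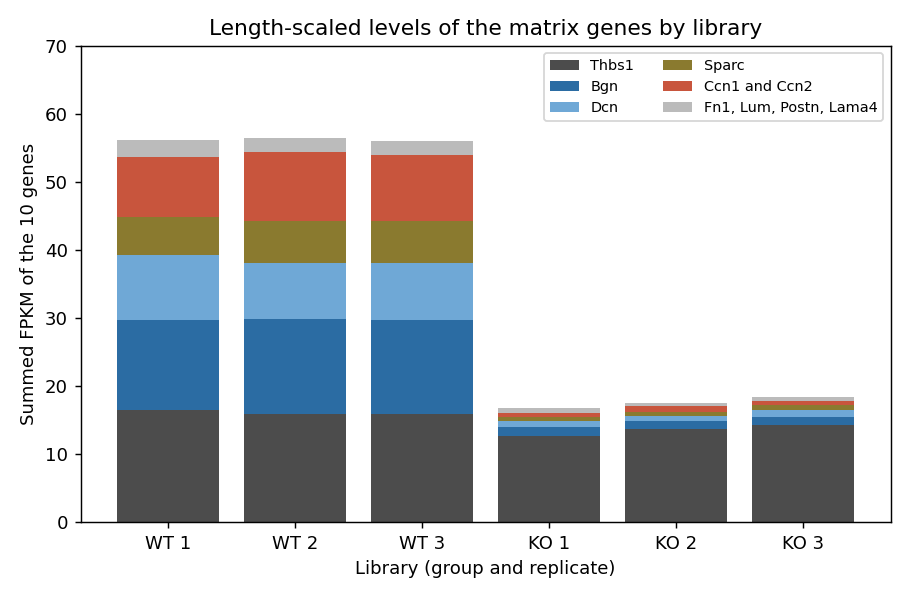
FPKM of the 10 genes stacked per library, 3 WT and 3 KO. The sum is 56.0 to 56.5 in WT and 16.8 to 18.5 in KO, and Thbs1 makes up 28.2% to 29.3% of it in WT and 75.6% to 77.8% in KO.

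The summed FPKM of the 10 genes was 56.1, 56.5 and 56.0 in WT and 16.8, 17.6 and 18.5 in KO. Thbs1 contributed 29.3%, 28.2% and 28.3% of it in WT and 75.6%, 77.8% and 77.5% in KO. The 6 genes grouped as fibroblast-type together contributed 53.2%, 52.6% and 53.1% in WT and 18.2%, 15.8% and 17.3% in KO. The CCN pair contributed 15.8% to 17.9% in WT and 3.31% to 4.67% in KO, and Fn1 stayed between 1.32% and 2.08% in all 6 libraries. Between libraries of a group the 10 genes varied little beyond counting: of 20 values of chi-square per degree of freedom, 18 lay between 0.0284 and 1.92. The others are those of Thbs1 in KO and Fn1 in WT given above. Over all tested genes edgeR's common estimate of variation beyond counting was 1.66%. The very small p-values in this text rest on that narrow spread, which could be technical.

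Other genes of the matrix and its upkeep were read from 8 lists written without regard to how each gene moved, though with earlier results of these data known. They hold 165 genes, of which 151 were listed and 102 tested. Of those tested, 45 (44.1%) were lower and 38 (37.3%) higher in KO, against 34.9% and 34.4% of all tested genes, and their median log2 fold change was -0.06. On the TPM scale, 24 were higher and 38 lower, and calls over all genes there were 2307 higher and 5427 lower, against 4060 and 4119 on counts.

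Among other matricellular genes, 9 of 12 tested were lower and 2 were higher (median -1.13). Spp1, which encodes osteopontin, was 2.46-fold lower (adjusted p = 5.95e-38), Mfge8, a bridge between phagocytes and dying cells, 2.01-fold lower (4.17e-30), and Fstl1, a SPARC-related glycoprotein, 2.05-fold lower (2.01e-21). Tgfbi, a paralog of Postn, went the other way, from 742 ± 4.09 to 1099 ± 7.71 CPM, with an adjusted p of 8.69e-26. These p-values are adjusted ones from edgeR's quasi-likelihood fit. Paralogs of the 10 genes were then looked up after their values were seen: Ccn4 had 17, 14 and 12 counts in WT and 4, 4 and 0 in KO, Ccn5 25, 28 and 25 against 3, 6 and 5, and Thbs2 52, 57 and 67 against 27, 27 and 18. Each of these 3 was lower, with log2 fold changes of -2.32, -2.39 and -1.23. Tnc, the gene of tenascin-C, also looked up afterwards, had 292, 264 and 262 counts in WT and 51, 42 and 53 in KO.

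Of 14 other small leucine-rich proteoglycan genes, 9 were listed and only Tsku passed the filter, with 22.1 CPM in WT against 31.0 in KO (adjusted p = 2.37e-10, edgeR's quasi-likelihood test). The remaining 8 had at most 17 counts in any library and were not tested in this fit. With no low-count filter, Prelp and Podnl1 (named after their values were seen) were also called. Prelp was higher (6, 3 and 2 counts in WT, 15, 17 and 8 in KO) and Podnl1 lower (5, 1 and 2 against 0 in each KO library). No gene of this list was called lower in any other setting, whereas 2 were called higher also with DESeq2 and with limma on log2(FPKM + 1) without a filter. Larger and membrane proteoglycans divided, with 6 of 13 tested lower, 5 higher and 2 not passing, and a median of -0.06 (4 lower and 5 higher on the TPM scale). The 4 with the smallest p were all higher: Srgn, the granule proteoglycan serglycin, rose 1.39-fold, Vcan, versican, 1.60-fold, and the syndecan genes Sdc3 and Sdc1 rose 1.82-fold and 1.41-fold (adjusted p from 2.10e-27 to 1.45e-13). Looked up after their values were seen, Prg4, a joint lubricant, had 70, 55 and 51 counts in WT and 6, 5 and 1 in KO, and Hspg2, the basement membrane proteoglycan perlecan, 57, 50 and 66 against 8, 12 and 5.

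In the laminin list no tested gene was as far down as Lama4. Of 6 tested genes, 3 were lower and the other 3 did not pass, with a median of -0.65. Nid1, nidogen, which links laminin to collagen IV, was 7.35-fold lower (56, 51 and 56 counts in WT against 10, 5 and 6 in KO), Lamb1 fell by 2.58 on the log2 scale (adjusted p = 7.05e-11, edgeR's quasi-likelihood test) and Lamb2 2.11-fold lower. Lamc1, the gamma chain that pairs with the alpha 4 chain, was abundant, with 1015, 1084 and 1096 counts in WT and 945, 1007 and 996 in KO, and did not pass (log2 fold change -0.06, SE 0.0410, adjusted p = 0.194 in edgeR's test). It passed as lower without scaling beyond library totals (log2 -0.12) and on the TPM scale (log2 -0.18). In those settings the median of all genes was itself shifted, to -0.06 and -0.12. In the elastic fibre list 4 of 8 tested genes were lower and 4 higher (3 and 1 on the TPM scale), with Fbn1, fibrillin-1, at 8.29-fold lower, Fbln5 at 3.50-fold lower and Ltbp2 at 3.24-fold lower, and Emilin1 at 1.22-fold higher.

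Receptors for these proteins changed by small amounts. Of 23 tested, 15 were higher, 6 lower and 2 did not pass on counts, with a median of 0.19 and no change of 2-fold in either direction, and on the TPM scale 10 were higher and 8 lower. Stab1, a scavenger receptor that takes up SPARC, rose 1.87-fold, Itga6, a laminin-binding integrin chain, 1.58-fold and Itgam 1.33-fold, while the hyaluronan and osteopontin receptor gene Cd44 fell 1.40-fold (adjusted p from 1.62e-29 to 6.58e-22, edgeR's quasi-likelihood test).

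Regulators and partner targets of the CCN genes were lower in 12 of 18 tested cases and higher in 3, with a median of -0.28. Tead1, encoding a TEAD factor, had 26, 33 and 36 counts in WT and 7, 3 and 2 in KO, and Lats1, a kinase that restrains YAP, was 1.41-fold lower. The ligand gene Tgfb1 was 1.25-fold higher (adjusted p of these 3 genes from 9.36e-16 to 4.49e-09). Yap1, looked up after its value was seen, had 17, 20 and 20 counts in WT and 1, 1 and 6 in KO. Enzymes that build the glycosaminoglycan chains of decorin and biglycan showed no common direction, with 8 of 22 tested higher, 6 lower and 8 not passing on counts and 3 higher and 8 lower on the TPM scale. Xylt2, which starts the chain, rose 1.77-fold and the sulfotransferase gene Ust 1.51-fold, and Chst11 and Chpf fell 2.53-fold and 2.23-fold.

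**Figure D4:**
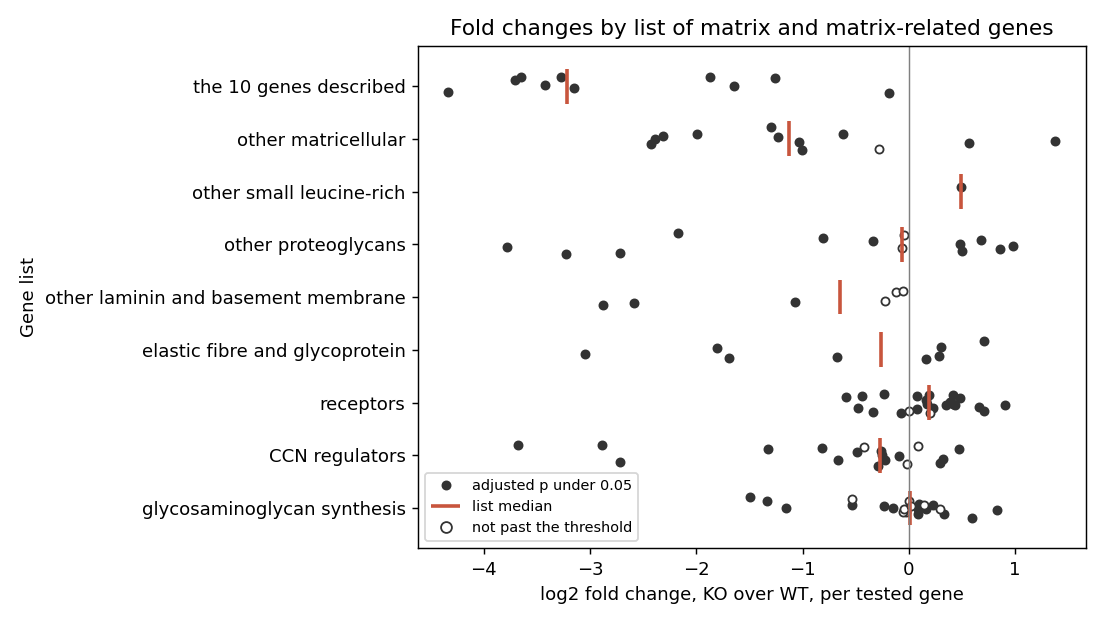
Fitted log2 fold changes of each tested gene (points, filled where the adjusted p is under 0.05) by list, with the list median as a bar. The medians are -3.21 for the 10 genes described and -1.13 for other matricellular genes, and lie between -0.65 and 0.49 for the other lists. The 0.49 of the other small leucine-rich list is the value of its only tested gene, Tsku.

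The genes most like 4 of the members were sought among 9573 genes averaging 5 CPM or more, by Euclidean distance of centred log2 CPM over the 6 libraries. With only 6 libraries in 2 groups, this distance mostly matches the size of the group difference. Nearest to Dcn were Col6a1 (distance 0.374) and Adgrg3 (0.430), and nearest to Ccn2 was Padi4 (0.311). Nearest to Thbs1 were Csnk2a2 (0.0429) and Gmeb1 (0.0469), and nearest to Fn1 were Neil3 (0.185) and Hilpda (0.250).

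Some reads of 3 of the genes could belong to overlapping genes, since the labels do not state whether counting used the strand. In GENCODE M21, Ccn2 overlaps Gm15270, Fn1 overlaps Apol7d and Thbs1 overlaps Gm29233, each on the opposite strand.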

How the data were processed

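PolyA-selected RNA was sequenced, per the labels' protocols, and the submitters' processing notes name HISAT, Bowtie2 and build GRCm38.p6, with no role or order. The counter, its annotation and its use of strand were not given in the sources used here. Per the file headers, the authors' table holds expected counts per gene (8.66% to 9.19% of values not whole), which were rounded, and FPKM and TPM values. The authors' heat map table holds log2(FPKM + 1) of 6784 genes, all 10 described here included, and was used only for that count. Not used were 6 columns of normalised counts and 8 of means.

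Groups were compared with edgeR 4.0.16 in R 4.3.3 (quasi-likelihood test, TMM scaling, filterByExpr, group only), with Benjamini-Hochberg adjustment over 11817 genes and a threshold of 0.05. SE is the absolute log2 fold change over the square root of F. The test was checked on simulated counts with a variation between libraries of 2% beyond counting. Few genes were changed there and none of low count, so that check does not cover Lum, Postn or Lama4. Count ratios have exact conditional binomial 95% intervals. CPM values use TMM-scaled library sizes. By unscaled library totals, a count of 3 corresponds to 0.149 to 0.150 CPM. With TMM scaling, the 3 counts of Lama4 in KO replicate 3 gave 0.153 CPM. Members and lists were chosen with earlier results of these data known. Named are the 10 genes, the 4 genes of smallest p in each list, markers at 0 and the 2 genes most like each of 4 members. Fewer are named than this allows, and 1 of them is not reported here; Siglecf, Ddx3y and genes so marked in the text were picked after their values were seen. Alternatives were other scaling, filters, a replicate block, each library left out, DESeq2 1.42.0, and limma 3.58.1 on log2(FPKM + 1), log2(FPKM + 0.1) and log2(TPM + 1). Other steps used SciPy 1.17.1, pandas 2.3.3 and matplotlib 3.10.9 under Python 3.11.15.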

Additional observations from a re-analysis of the deposited data

How the results depend on the processing

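Each of the 10 genes was lower in KO in all 145 alternative fits that tested it; since the genes were chosen on this contrast, and Ccn1, Lum, Lama4 and Postn passed the filter only through WT, this is no sign of stability. The number of the 10 called lower, 10 in edgeR with the stated settings, was 6 with a filter of at least 5 CPM in 3 libraries and 6 with limma on log2(FPKM + 1) or log2(FPKM + 0.1) after the low-value filter, because fewer of the 10 were tested. For the same reason the 45 lower genes of the other matrix lists became 27 in each of those 3 settings. Their 38 higher genes became 24 on log2(TPM + 1), where the median of all genes shifted by -0.12. Fold sizes shrank with a pseudocount of 1, to -1.46 for Ccn1 on log2(FPKM + 1) and -0.44 for Lama4 without the filter. Leaving out 1 library at a time moved Lum between -2.05 and -1.48 and Thbs1 between -0.23 and -0.14. Counts within single lists moved by over 1.5 times in 36 of 256 alternatives, and the laminin list had 0 lower genes in the 3 settings above. Of 979 alternatives for named genes none reversed and 5 changed a call, those of Lamc1 and Hopx. Same-numbered libraries deviated together only weakly (correlations of 0.193, 0.0413 and 0.0878), so the numbers were not taken as pairs; with the replicate block 10 of the 10 genes were lower and 45 and 38 other matrix genes lower and higher, and 8321 genes were called against 8179. Depth limits Lama4, Lum, Postn and Ccn1 in KO.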
